A study of Homo sapiens with 36 samples.

Results

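The heavy polysome fraction of MDA-MB-231 cells was compared between cells in which CRISPR interference (CRISPRi) was aimed at Ile GAU, the isoleucine tRNA whose anticodon is GAU, and control cells in which it was aimed at eGFP. MDA-MB-231 is an established line of human triple-negative breast cancer cells, and the labels give its source as a xenograft cell line. The members are the 6 libraries with those labels, 3 per line (replicates A, B and C), out of 36 libraries in 12 groups of 3. Both lines also carried the control version of an overexpression construct. They are called GAUi and control below. The study's other lines overexpressed the isoleucine tRNA with the UAU anticodon, with CRISPRi against eGFP (UAU) or against the GAU tRNA (isoswitch). Each line gave total RNA, a low fraction (80S plus first polysome peak) and a high fraction (heavier than 2 ribosomes), and all cells had 100 µg/mL cycloheximide, which stalls elongating ribosomes, for 5 minutes. The labels name no clone and do not say whether the letters mark separate cultures. The p-values therefore measure only how far these samples spread, which may be technical. The libraries read polyadenylated RNA, so the tRNA itself was not measured.

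A tRNA reads codons through its anticodon: GAU pairs with the isoleucine codons AUC and AUU, while UAU reads the rarer codon AUA. In CRISPRi a Cas9 without cutting activity, tethered to a repressor, silences the gene it is guided to. An mRNA that many ribosomes translate at once sediments with the heavy polysomes. Its level there therefore follows both how much of the mRNA the cell holds and how many ribosomes it carries. QuantSeq counts 1 fragment near the 3' end of each RNA, so a library gives the share that each mRNA takes of the fraction, not an absolute amount.

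The 6 libraries held 5740335 to 8974001 counts and 14783 to 15293 detected genes. Levels are in CPM, the counts of a gene per library scaled to one common total, with TMM factors over all 36 libraries. The top 10 genes by level held 7.26% to 7.54% of a GAUi library and 6.30% to 6.83% of a control library. The cells carried the markers of a mesenchymal-like triple-negative line: AXL, a receptor kinase, had 618 ± 10.01 CPM (SD, n = 3) in control and 651 ± 3.75 CPM in GAUi, and the 15 markers summed to 5990 to 6585 CPM in control and 5837 to 5873 CPM in GAUi. AXL was not called; of 14 tested markers VIM, CAV1, ANXA1 and TGFBI were lower and FOSL1 higher, with a median of -0.13, and 3 lie on chromosome 7, CAV1 among them. Fibroblast markers summed to 1.49 to 3.27 CPM in control and 2.46 to 3.22 CPM in GAUi, and leukocyte markers to 13.4 to 17.4 and 9.34 to 16.6 CPM. Endothelial markers summed to 214 to 225 CPM in control and 266 to 279.6 CPM in GAUi, of which the adhesion molecule ESAM made up 217 ± 5.23 and 271 ± 5.99 CPM, while VWF, CDH5, TEK, CLDN5 and ERG were at 0 in all 6 libraries. So were DCN, LUM, PDGFRA and POSTN of the 10 fibroblast markers and CD3E, CD3D, MS4A1 and ITGAM of the 10 leukocyte markers. The 15 luminal markers summed to 468 to 502 CPM in control and 419 to 439 CPM in GAUi, with no overlap. Of 10 tested only AGR2 was called, lower and on chromosome 7 (-1.05; not by DESeq2; list median -0.18), the keratins KRT18 and KRT19 held most of the sum, and ESR1, PGR, FOXA1, TFF1 and CDH1 were at or near 0. In bulk RNA fewer cells of a kind and less RNA per cell cannot be told apart.

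In the high fraction 1215 of 11979 tested genes (10.1%) were called at an adjusted p under 0.05 with the edgeR quasi-likelihood test, 558 higher in GAUi (4.66%) and 657 lower (5.48%). Most changes were small: the median size among called genes was 0.43 on the log2 scale, and 33 genes rose and 56 fell by at least 2-fold. The 3 GAUi and 3 control libraries did not overlap in 3757 genes (31.4%). DESeq2 called 1080 genes. Scaled by library totals in place of TMM, 288 were higher and 1181 lower, so that 19.6% of the calls were higher in place of 45.9%. Leaving out control replicate A or GAUi replicate A brought the calls to 569 and 563, and leaving out control replicate B or GAUi replicate C to 724 and 705. Of 195 called members of the gene lists below, 68 kept their call in all 6 fits without 1 library, and 110 lost it without control replicate A and 107 without GAUi replicate A. The called genes whose level is given library by library below are among those that kept it, except where a lost call is stated.

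A large part of the fall lay on 1 chromosome, a pattern seen only after the values were examined. Genes of chromosome 7 made up 37.3% of the lower calls. Their median log2 fold change was -0.39 over 568 tested genes, of which 537 had a value below 0, and its quartiles were -0.56 and -0.23. The medians of the other 22 chromosomes lay between -0.03 and 0.05. The shift ran along the whole chromosome, since the medians of its 16 windows of 10 Mb lay between -0.59 and -0.30, against -0.17 to 0.17 for 213 windows with at least 20 tested genes elsewhere. TFPI2, an extracellular protease inhibitor, was the only chromosome 7 gene called higher.

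Counted as a share of each high-fraction library, chromosome 7 genes took 3.46%, 3.44% and 3.44% of the counts in GAUi and 4.57%, 4.56% and 4.65% in control, a ratio of 0.751. The groups did not overlap, and an exact two-sided permutation test gave p = 0.1, the smallest value that 3 against 3 libraries can give. Chromosome 7 was picked from the values of these same libraries, so this p-value adds no support for the shift. The ratio was 0.741 in total RNA and 0.769 in the low fraction. Isoswitch cells against UAU cells, which share no library with this comparison, gave 0.773 in the high fraction. The difference in change between high fraction and total RNA had no such pattern, with 1.61% of its lower calls on chromosome 7. DNA copy number was not measured, and what lies behind the shift was not tested. The other 22 chromosomes held 552 of the higher and 406 of the lower calls, which leaves out genes with no placed chromosome, and a fit without its genes called 421 higher and 390 lower. The position of each gene on chromosome 7 is therefore given beside its value below.

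**Figure D1:**
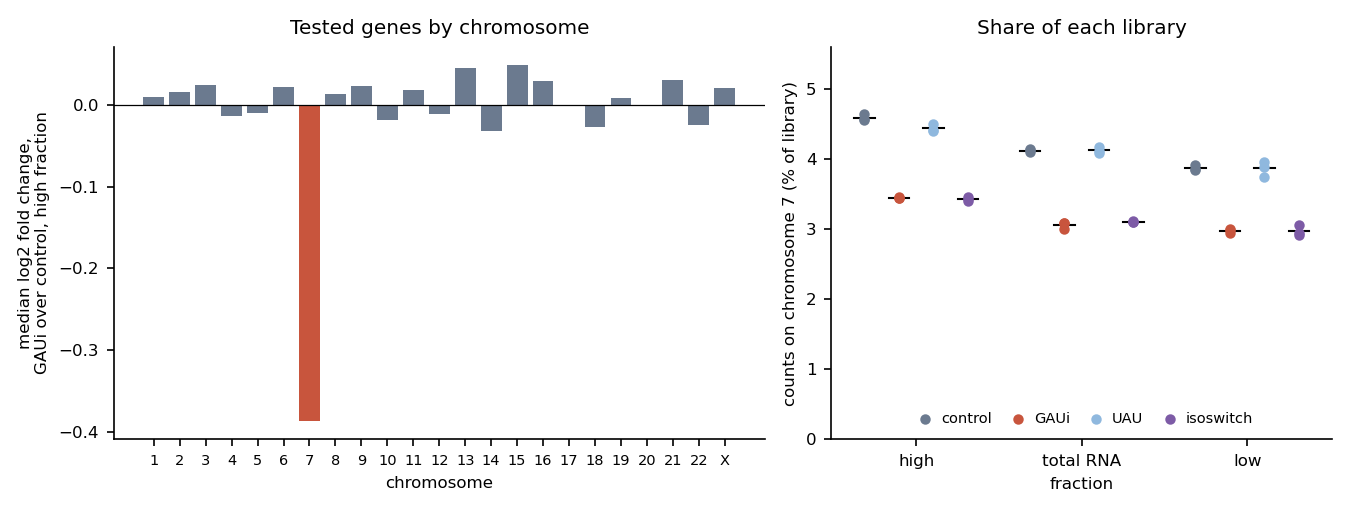
Left, median log2 fold change (GAUi over control, high fraction) of the tested genes on each chromosome; chromosome 7 stands at -0.39 and the others between -0.03 and 0.05. Right, share of each library's counts on chromosome 7 (% of library) in the 3 fractions and 4 lines; points are libraries and lines are means of 3, and GAUi and isoswitch lie below control and UAU in every fraction.

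Among the 15 genes with the lowest log2 fold changes, PON2, S100A4 and DDIT4 stood out by size or level. PON2 (chromosome 7, 95404862 to 95435028; positions are from RefSeq, GRCh38.p14) encodes paraoxonase 2, a membrane-bound antioxidant lactonase. It had 22.5, 23.1 and 22.5 CPM in the control libraries and 4.90, 5.15 and 5.24 CPM in GAUi. The groups lay far apart and each held close values (log2 fold change -2.15, SE 0.15, edgeR adjusted p = 2.34e-10), and the fall was 1.76 beyond the median of its chromosome. In total RNA the change was -1.47 (adjusted p = 1.75e-06, edgeR).

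S100A4 (chromosome 1, 153543621 to 153545806) encodes a small calcium-binding protein linked to cell motility and metastasis. Its level was 1306, 1241 and 1385 CPM in control and 508, 460.2 and 495 CPM in GAUi, with no overlap (log2 fold change -1.42, SE 0.08, edgeR adjusted p = 3.25e-12). In total RNA it fell further (-2.04), and the difference between the 2 changes passed its own test (log2 fold change 0.62, SE 0.13, edgeR adjusted p = 0.03): S100A4 mRNA fell less in the heavy polysomes than in the cell as a whole. That call of the difference was lost without GAUi high-fraction replicate A, as was every call of the same test. S100A4 was the only 1 of 10 tested S100 genes called.

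DDIT4 (chromosome 10, 72273924 to 72276036) encodes REDD1, a stress-induced inhibitor of mTORC1. It had 113, 101 and 124 CPM in control and 43.05, 40.04 and 39.8 CPM in GAUi (log2 fold change -1.45, SE 0.10, edgeR adjusted p = 3.43e-10). All 3 GAUi libraries lay below all 3 control libraries, and total RNA (-1.70) and the low fraction (-1.24) changed the same way.

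GPRC5C (chromosome 17, 74432088 to 74451658), a retinoic acid-inducible orphan receptor, fell from 28.7, 34.5 and 28.9 CPM to 9.19, 9.58 and 8.36 CPM (log2 fold change -1.75, SE 0.16, edgeR adjusted p = 4.61e-08). IGFBP1 (chromosome 7, 45888488 to 45893660), which binds insulin-like growth factors, fell from 33.5, 36.7 and 31.96 CPM to 12.1, 11.3 and 13.9 CPM (log2 fold change -1.45, SE 0.14, edgeR adjusted p = 1.06e-07), and by 1.07 beyond its chromosome's median. INHBB (chromosome 2, 120346136 to 120351803), the beta B subunit of activins and inhibins, had 11.996, 12.6 and 10.4 CPM in control and 5.82, 4.004 and 2.95 CPM in GAUi (log2 fold change -1.45, SE 0.20, edgeR adjusted p = 1.92e-05). In each of these 3 genes the lowest control library lay above the highest GAUi library.

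The remaining lowest genes were VSTM2L (-1.28), the collagen galactosyltransferase COLGALT2 (-1.23), the tight junction protein CLDN4 (-1.20, chromosome 7), PRKAR1B, a regulatory subunit of protein kinase A (-1.19, chromosome 7), IQSEC2 (-1.13), the lectin-like CLEC2B (-1.07), the ETS transcription factor ETV1 (-1.07, chromosome 7) and kynurenine monooxygenase KMO (-1.05). HSPA1B, a stress-inducible HSP70, had 29.6, 19.5 and 21.8 CPM in control and 7.35, 7.72 and 7.05 CPM in GAUi (log2 fold change -1.69, SE 0.18, edgeR adjusted p = 3.38e-07). Its near-identical copy HSPA1A held 16 to 49 counts per library against 43 to 259 for HSPA1B, so the split between the copies is uncertain. HSPA1B was also lower relative to total RNA (log2 fold change -1.28, SE 0.30, edgeR adjusted p = 0.0395). Of the 15, 5 lie on chromosome 7.

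At the other end, KRTAP2-3 (chromosome 17, 41059240 to 41060114), a keratin-associated protein of hair, had 3.20, 4.44 and 2.18 CPM in control and 15.5, 10.7 and 9.67 CPM in GAUi (log2 fold change 1.84, SE 0.24, edgeR adjusted p = 9.16e-06). Every GAUi library lay above every control library, as it did for all 15 genes by the rule that chose them. Carboxypeptidase M, whose symbol CPM is the same as the unit, had a level of 6.17, 5.82 and 7.99 CPM in control and 14.4, 15.02 and 17.2 CPM in GAUi (log2 fold change 1.24, SE 0.19, edgeR adjusted p = 9.36e-05). KISS1 (chromosome 1, 204190341 to 204196491), the precursor of kisspeptins and a suppressor of metastasis, had 33.6, 33.5 and 45.6 CPM in control and 65.3, 75.7 and 70.5 CPM in GAUi (log2 fold change 0.92, SE 0.12, edgeR adjusted p = 6.83e-06).

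The other genes of that group were more modest. CTSC, the lysosomal protease cathepsin C, rose from 128 ± 3.18 CPM to 219 ± 10.6 CPM (log2 fold change 0.78, SE 0.08, edgeR adjusted p = 2.71e-07). The acute-phase protein SAA1 rose by 0.94, the methylcytosine dioxygenase TET3 by 0.87, the growth factor FGF5 by 0.79, the fibrillar collagen COL27A1 by 0.78 and TMEM136 by 0.78 on the log2 scale. The non-coding MGC12916 rose by 1.31. APCDD1L rose by 0.76 and its antisense neighbour APCDD1L-AS1 by 1.29. The 2 gene models overlap, and the strand setting of the counting is not given in the sources used here, so their reads cannot be told apart. BMI1, a Polycomb subunit, rose by 0.78, and its read-through model COMMD3-BMI1 held nearly the same counts in every library, so the pair counts as 1 signal. ATP5L2 (0.77) is a close copy of ATP5L. All 30 genes kept their call when any 1 of the 6 libraries was left out and under the 7 other settings tried.

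**Figure D2:**
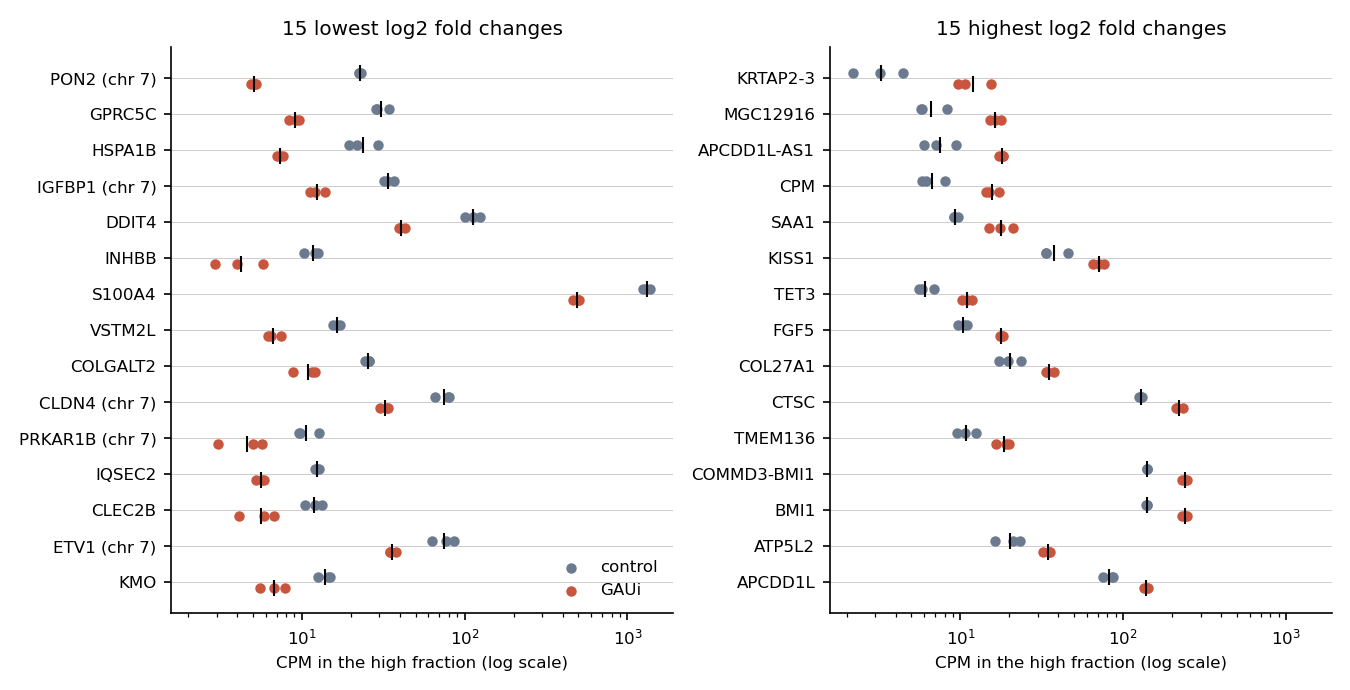
Level in the high fraction (CPM, log scale) of the 15 lowest and 15 highest called genes by log2 fold change, kept to those whose groups did not overlap and whose mean log2 CPM was 3 or more; points are single libraries and black bars the means of 3. PON2 lies at 22.5 to 23.1 CPM in control and at 4.90 to 5.24 CPM in GAUi, and S100A4 at 1241 to 1385 and 460.2 to 508 CPM.

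Of the lists examined, those of the ribosome's own proteins held the most rises. Of 47 tested genes for the large subunit, 27 rose and 0 fell (median log2 fold change 0.25), and of 32 for the small subunit 20 rose and 0 fell (median 0.27). Over all tested genes 4.66% were called higher and 5.48% lower, and the median was 0.00. The counts of the lists below in the high fraction are to be read against these shares. A further 17 large-subunit and 12 small-subunit genes had a fold change above 0 without a call, and 3 had one below 0.

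The summed level of the large-subunit genes in the high fraction was 85868, 85206 and 89009 CPM in control and 102419, 102148 and 107111 CPM in GAUi. For the small subunit it was 75794, 74883 and 81345 CPM and 92266, 90903 and 98105 CPM. In both, the GAUi libraries lay above all control libraries. RPS29 had 4123, 4123 and 4276 CPM in control and 5996, 5476 and 6140.3 CPM in GAUi (log2 fold change 0.49, SE 0.08, edgeR adjusted p = 0.000119), and RPL38 had 1669.6, 1607 and 1634 CPM and 2385, 2129.5 and 2266 CPM (log2 fold change 0.47, SE 0.08, edgeR adjusted p = 0.000163). Ribosomal protein genes have many processed pseudogenes, so part of their reads may have been assigned elsewhere.

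Rises were called in total RNA too. The summed level of the large-subunit genes there was 75592, 75322 and 78723 CPM in control and 83336, 82336 and 82038 CPM in GAUi, with no overlap, and their median log2 fold change was 0.21. In total RNA 19 large-subunit genes rose and 0 fell (background 4.38% higher and 5.72% lower), and 7 small-subunit genes rose and 3 fell (median 0.17). In the low fraction edgeR called 0 of either list (background 1.27% higher and 2.13% lower), DESeq2 called 1 lower in each, and 7 and 5 were lower at an unadjusted p under 0.05. The sum for the large subunit there was 93590.1 ± 4789 CPM in control and 92994 ± 3384 CPM in GAUi. The high fraction minus total RNA test called 2 of 47 large-subunit and 3 of 32 small-subunit genes higher, against 0.223% of all genes. One of them was RPL23A, with 0.44 in the high fraction, -0.07 in total RNA and a difference of 0.51 (SE 0.12, edgeR adjusted p = 0.0451). The 3 small-subunit genes were RPS14, RPS28 and FAU, which fell in total RNA (-0.36, -0.27 and -0.26). The counts of rises were 15 and 8 without control replicate A, 15 and 9 without GAUi replicate A, 17 and 8 without GAUi replicate C, and for the small subunit 11 without control replicate B.

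Ribosomal protein mRNAs are known for a terminal oligopyrimidine (TOP) start, a C at the first transcribed base followed by a run of pyrimidines, through which mTORC1 signalling controls their translation. RefSeq promoter windows (250 bases before to 50 bases from the annotated start, GRCh38.p14) were at hand for 38 large-subunit and 25 small-subunit genes. A C at the annotated start followed by at least 4 pyrimidines, read on the gene's strand, stood in 25 and 18 of them (17 of the 21 and 11 of the 15 called higher). It stood in 4.04% of all 27305 promoters, in 5.44% of those of tested genes, in 14.4% of those called higher and in 5.04% of those called lower. Outside the ribosomal protein and translation factor lists, 35 of 412 genes called higher (8.5%) had it. A match describes the annotated start, which need not be the one used in these cells. The stretches below show 10 bases before and 15 from the annotated start for the called genes with such a start and the smallest p, with the pyrimidine run in capitals. They are RPS27 (chr1:153990752-153990776, plus strand), RPS18 (chr6:33272065-33272089, plus), RPS21 (chr20:62387093-62387117, plus), RPL38 (chr17:74203668-74203692, plus), RPL22 (chr1:6199581-6199605, minus), RPL37A (chr2:216498834-216498858, plus), and the translation factors EIF4A2 (chr3:186783567-186783591, plus) and TPT1 (chr13:45341169-45341193, minus).
RPS27: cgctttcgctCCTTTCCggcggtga
RPS18: cacttccgctCTCTCTTCCacagga
RPS21: ctagctgcttCCTTTCTCTCTCgcg
RPL38: aagtctcgttCTTTTTCgtcctttt
RPL22: cgctcacctcCCTTTCTaactccgc
RPL37A: gcgtctcttcCTTTCTgggctcgga
EIF4A2: gcgccgctgtCTTTTCagtcgggcg
TPT1: ctgagtcggcCTTTTCCgcccgctc

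In these 8 genes the log2 fold changes in the high fraction were 0.50, 0.36, 0.42, 0.47, 0.47, 0.44, 0.35 and 0.33 in that order. Of 41 translation factors tested, 4 rose and 2 fell, with a median of -0.01. The rises numbered 2 without control replicate A or B or GAUi replicate A or B and 1 without GAUi replicate C, and library totals gave 2 rises and 7 falls. EIF4A2, an RNA helicase of initiation, rose from 126 ± 5.18 to 161 ± 14.2 CPM (log2 fold change 0.35, SE 0.08, edgeR adjusted p = 0.00738), a call lost without GAUi replicate B. The initiation factor subunits EIF3B (-0.60, chromosome 7) and EIF3D (-0.34) fell.

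Mitochondrial components also rose more often than they fell, except that with library totals in place of TMM the respiratory chain held 8 rises and 8 falls. Among nuclear-encoded respiratory chain subunits 14 of 71 rose and 3 fell (median 0.14), and among mitochondrial ribosomal proteins 13 of 75 rose and 1 fell (median 0.13). ATP5E, a small subunit of ATP synthase, had 812, 802 and 869 CPM in control and 1135, 964 and 1177 CPM in GAUi (log2 fold change 0.40, SE 0.09, edgeR adjusted p = 0.00436). NDUFB1 of complex I rose by 0.37 and UQCRQ of complex III by 0.34. MRPS21 had 48.2, 49.6 and 55.2 CPM in control and 67.9, 73.1 and 72.3 CPM in GAUi (log2 fold change 0.49, SE 0.09, edgeR adjusted p = 0.00103). The catalytic-core subunits of ATP synthase ATP5A1 (-0.49) and ATP5B (-0.38) fell, as did NDUFB2 (-0.28) and MRPS33 (-0.32), both on chromosome 7.

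These counts moved with single libraries. Without single libraries 4 to 11 respiratory chain and 3 to 10 mitochondrial ribosomal genes rose, the fewest without control replicate B and GAUi replicate A, and 5 and 4 without control replicate A. The respiratory chain count was also 5 without GAUi replicate A and 6 without GAUi replicate C. With library totals 7 mitochondrial ribosomal genes rose and 2 fell. In total RNA 5 of 71 respiratory chain genes rose and 2 fell, and 5 of 75 mitochondrial ribosomal genes rose and 4 fell. Of all genes tested there 4.38% were called higher and 5.72% lower.

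RNAs of the light part of the gradient were set beside these rises. Among 22 tested snoRNA host and other abundant non-coding RNAs 3 rose and 1 fell (median 0.21), and these RNAs lay far to the low side in isoswitch cells (median log2 low over high 3.43). GAS5 had 38.2, 46.9 and 52.8 CPM in control and 66.3, 61.8 and 69.7 CPM in GAUi (log2 fold change 0.53, SE 0.12, edgeR adjusted p = 0.00506; not called without control replicate A), and NEAT1, a nuclear RNA, fell from 48.4, 44.1 and 52.5 CPM to 33.9, 33.2 and 33.6 CPM (log2 fold change -0.52, SE 0.10, edgeR adjusted p = 0.00159). Genes were also ordered by how far they lay in the low over the high fraction of isoswitch cells, which share no library with this comparison. In the tenth of genes most held in the low fraction, the median change in GAUi was 0.08, with 85 of 1198 higher and 26 lower; in the tenth least held there it was -0.02, with 33 higher and 91 lower. Of the other lists set on this scale, none had a median on the low side. It was -0.22 for the large and -0.03 for the small ribosomal subunit. It was -0.53 for the respiratory chain, -0.85 for mitochondrial ribosomal proteins and -0.76 for glycolysis, a list with falls. Summed levels in isoswitch cells placed both ribosomal subunits on the low side. Small-subunit genes had a mean sum of 74209 CPM among heavy polysomes, against 98970 CPM for the low fraction. For the large subunit these means were 86470 and 95665 CPM. Sums of the respiratory chain overlapped, and those of mitochondrial ribosomal proteins and glycolysis were smaller in the low fraction. The part of carry-over between fractions in these results was not tested.

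**Figure D3:**
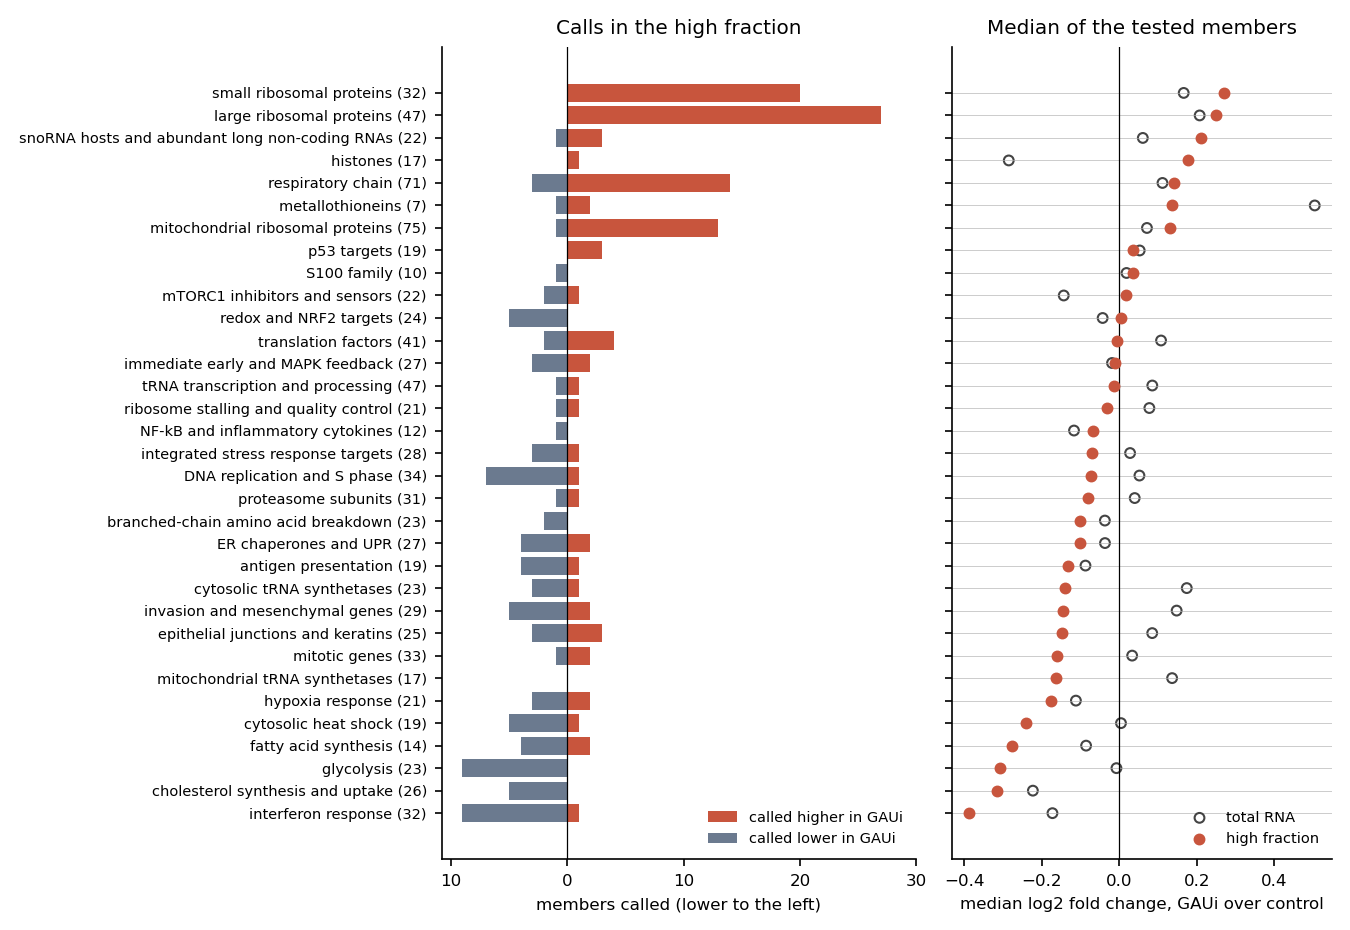
Left, members of each gene list called higher (right of 0) or lower (left of 0) in GAUi, high fraction, with the number tested in brackets. Right, median log2 fold change of the tested members in the high fraction (filled) and in total RNA (open); the ribosomal protein lists lie at 0.25 and 0.27 and glycolysis at -0.31 in the high fraction and -0.01 in total RNA.

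Of 23 tested glycolytic genes 9 fell in the heavy polysomes and 0 rose (median -0.31; background 5.48% lower); DESeq2 also called 0 higher, and 1 was higher at an unadjusted p under 0.05. Their summed level was 6528, 6546 and 6497 CPM in control and 5113, 5563 and 5444 CPM in GAUi, with no overlap. ENO1, which converts phosphoglycerate to phosphoenolpyruvate, had 712, 707 and 610.2 CPM in control and 487, 501 and 507 CPM in GAUi (log2 fold change -0.44, SE 0.10, edgeR adjusted p = 0.00502). PGK1, an ATP-forming step, had 149, 143 and 135 CPM and 105, 112 and 106 CPM (log2 fold change -0.40, SE 0.09, edgeR adjusted p = 0.00444), and GPI 176, 165 and 166 CPM and 119, 132 and 126 CPM (log2 fold change -0.42, SE 0.09, edgeR adjusted p = 0.00447). In all 3 genes the lowest control library was above the highest GAUi library. The glucose transporter SLC2A1 (-0.43), GAPDH (-0.37), PKM (-0.42), PFKP (-0.39), ALDOA (-0.31) and ENO2 (-0.43) made up the rest.

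In total RNA 3 glycolytic genes rose (HK2, PKM and LDHA) and 0 fell by edgeR or DESeq2, with 2 lower at an unadjusted p under 0.05 (median -0.01). The high fraction minus total RNA test called 4 of 24 lower, against 0.494% of all genes: PKM (-0.90), LDHA (-0.78), ENO1 (-0.62; edgeR adjusted p = 0.0478) and PGK1 (-0.55; edgeR adjusted p = 0.0392). The high-fraction count was 4 without control replicate A, 3 without GAUi replicate A and 6 without control replicate B or GAUi replicate C. None of the tested members lies on chromosome 7.

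**Figure D4:**
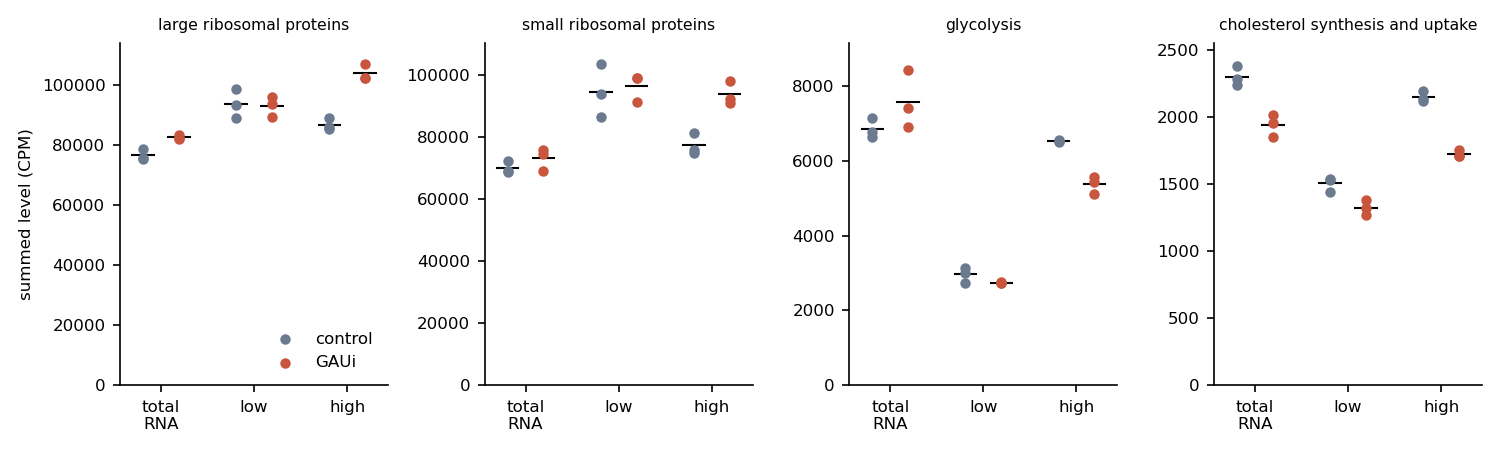
Summed level (CPM) of 4 gene lists in total RNA, low and high fraction; points are single libraries and lines the means of 3. In the high fraction GAUi lies above control for both ribosomal lists and below it for glycolysis (means 5373 against 6524 CPM) and cholesterol genes. In total RNA the glycolysis groups overlap, with 8441, 6901 and 7404 CPM in GAUi (mean 7582) and 6630, 6782 and 7135 CPM in control (mean 6849).

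Enzymes that supply NADPH and remove oxidants followed in part. Of 24 redox and NRF2 genes 5 fell and 0 rose, although the median was 0.00. PGD, an NADPH-forming enzyme of the pentose phosphate pathway, had 28.1, 21.9 and 19.4 CPM in control and 15.01, 18.02 and 14.4 CPM in GAUi (log2 fold change -0.56, SE 0.15, edgeR adjusted p = 0.0146), with no overlap, and was not called without control replicate A, GAUi replicate A or GAUi replicate C. Falls were also called in the quinone reductase NQO1 (-0.37), catalase CAT (-0.52) and the thioredoxin reductase TXNRD1 (-0.26). The count was 0 without GAUi replicate A, 1 without control replicate A or GAUi replicate C, 2 without control replicate B and 3 without GAUi replicate B.

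Interferon-induced genes had the lowest median of the 33 lists (-0.39). Of 32 tested, 9 fell and 1 rose, and DESeq2 called 6 lower. IFIT2, which binds viral RNA, had 7.88, 11.9 and 7.99 CPM in control and 2.91, 3.29 and 3.28 CPM in GAUi (log2 fold change -1.54, SE 0.24, edgeR adjusted p = 9.57e-05). IFIT3 had 14.5, 13.03 and 13.98 CPM and 6.89, 6.58 and 7.54 CPM (log2 fold change -0.98, SE 0.16, edgeR adjusted p = 0.000174). The ubiquitin ligase HERC5 had 20.3, 10.95 and 14.9 CPM and 10.7, 8.58 and 6.39 CPM (log2 fold change -0.85, SE 0.21, edgeR adjusted p = 0.0083; not called without control replicate A or GAUi replicate C). In these 3 genes the groups did not overlap.

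The 2'-5'-oligoadenylate synthetases OAS3 (-1.63), OASL (-1.02) and OAS2 (-0.90), IFIT1 (-0.96), PARP9 (-0.70) and BST2 (-0.42) also fell. IFITM1, a membrane protein that blocks viral entry, rose from 7.54, 6.38 and 8.35 CPM to 13.02, 12.4 and 11.1 CPM (log2 fold change 0.73, SE 0.17, edgeR adjusted p = 0.00547). In total RNA 12 of 33 members fell and 3 rose, and in the low fraction 5 fell. In no member was the high fraction minus total RNA test called, which called 0.223% of all genes higher and 0.494% lower. The median of that difference over the 33 members was -0.23. Several of these mRNAs are scarce: OAS3 had 4.57, 1.66 and 1.45 CPM in control and 1.07, 0.715 and 0.819 CPM in GAUi and was not called without control replicate A. The count of falls was 2 without control replicate A, 5 without GAUi replicate A, 4 without GAUi replicate C and 6 without control replicate C or GAUi replicate B.

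Interferons act through the interferon-stimulated response element (ISRE), whose core was searched as GAAANNGAAA on both strands of the promoter windows. It stood in 19 of the 27 list members with a window, in 5 of the 6 called lower and in the 1 called higher, IFITM1, against 3.65% of all promoters and 2.79% of those of tested genes. Among all genes called lower it stood in 4.1%, and among those called higher in 2.66%. The stretches below, each cut around its matches, come from the called members with a match and the smallest p, with each match in capitals. A match on the opposite strand appears as its reverse complement, and matches can overlap. They are IFIT3 (chr10:89327821-89327904), IFITM1 (chr11:313980-314043), HERC5 (chr4:88456974-88457074), IFIT1 (chr10:89392487-89392549) and OAS3 (chr12:112938311-112938473), all on the plus strand. IFITM1, which rose, carries the core as the 4 that fell do.
IFIT3: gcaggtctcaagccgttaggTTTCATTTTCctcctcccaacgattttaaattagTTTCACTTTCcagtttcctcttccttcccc
IFITM1: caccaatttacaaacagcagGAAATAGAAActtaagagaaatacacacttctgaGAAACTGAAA
HERC5: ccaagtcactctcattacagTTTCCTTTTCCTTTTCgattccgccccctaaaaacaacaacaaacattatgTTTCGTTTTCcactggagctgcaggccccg
IFIT1: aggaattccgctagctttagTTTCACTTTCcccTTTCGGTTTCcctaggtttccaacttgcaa
OAS3: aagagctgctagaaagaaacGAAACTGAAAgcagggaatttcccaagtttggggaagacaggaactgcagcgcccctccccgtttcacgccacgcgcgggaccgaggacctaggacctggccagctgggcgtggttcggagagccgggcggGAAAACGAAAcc

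Antigen presentation genes, many of which interferons also induce, showed 4 falls and 1 rise in 19. CD274 (PD-L1), the ligand by which tumour cells restrain T cells, had 9.60, 9.70 and 9.81 CPM in control and 16.7, 14.9 and 17.04 CPM in GAUi (log2 fold change 0.74, SE 0.18, edgeR adjusted p = 0.00958). The lowest GAUi library lay well above the highest control library, and total RNA (0.86) and the low fraction (0.92) were called as well. The members that fell were the peptide-trimming protease ERAP1 (-0.46) and the folding factors CALR (-0.40), CANX (-0.26) and PDIA3 (-0.37). Without control replicate A or GAUi replicate A 0 of them was called, and without control replicate B or GAUi replicate C 1. NFKBIA, the inhibitor of NF-kB, was the only 1 of 12 tested NF-kB and cytokine genes called (-0.38).

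Of 26 tested genes of cholesterol synthesis and uptake 5 fell and 0 rose, and 25 had a fold change below 0 (median -0.31). DESeq2 called 4 lower and 0 higher, and 0 were higher at an unadjusted p under 0.05. Their sum was 2130.1, 2121 and 2194 CPM in control and 1708, 1753 and 1710.2 CPM in GAUi. FDFT1, which makes squalene, had 43.3, 47.96 and 49.9 CPM in control and 35.8, 28.3 and 29.99 CPM in GAUi (log2 fold change -0.58, SE 0.12, edgeR adjusted p = 0.00305), with no overlap. CYP51A1 (-0.77) and INSIG1 (-0.70), which holds the sterol sensor in the endoplasmic reticulum, lie on chromosome 7. They stand 0.39 and 0.31 below that chromosome's median, and INSIG1 had 334, 351 and 359 CPM in control and 224, 209 and 209.6 CPM in GAUi. A fit without chromosome 7 genes called 2 members lower, and library totals in place of TMM gave 12.

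Lipogenic genes gave 4 falls and 2 rises in 14. SCD, the stearoyl-CoA desaturase, had 213, 210.3 and 207 CPM in control and 122, 133 and 119.8 CPM in GAUi (log2 fold change -0.75, SE 0.08, edgeR adjusted p = 1.22e-06), again with no overlap. The desaturases FADS2 (-0.55) and FADS1 (-0.26) and the acyl-CoA synthetase ACSL3 (-0.39) fell, and TMEM97 (0.34) and the fatty acid binding protein FABP5 (0.29) rose, though not with library totals in place of TMM. The falls numbered 2 without control replicate A, GAUi replicate A or GAUi replicate C. In total RNA 8 cholesterol genes fell and 1 lipogenic gene fell. The high fraction minus total RNA test was called in no member, against 0.223% of all genes higher and 0.494% lower. The median of that difference was -0.09 for the cholesterol and -0.17 for the lipogenic genes.

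Lists tied to tRNA supply were read against 4.66% of all tested genes called higher and 5.48% lower. When charged tRNA runs short, the kinase GCN2 can phosphorylate eIF2 and raise translation of ATF4, which induces the integrated stress response. ATF4 itself had 364, 358 and 419 CPM in control and 368, 330.5 and 395 CPM in GAUi (log2 fold change -0.06, SE 0.10, edgeR adjusted p = 0.777), and the groups overlapped. Of 28 tested response targets 1 rose and 3 fell (median -0.07); the falls numbered 1 without control replicate A or GAUi replicate C, and 6 with library totals in place of TMM. PPP1R15A (GADD34), which reverses eIF2 phosphorylation, rose from 124, 123 and 132 to 186, 157 and 177 CPM (log2 fold change 0.46, SE 0.08, edgeR adjusted p = 0.000617); DDIT4, SESN2 (-0.49) and the cystine transporter SLC7A11 (-0.31) fell.

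IARS, the cytosolic isoleucyl-tRNA synthetase, had 36.2, 30.8 and 25.4 CPM in control and 30.8, 31.5 and 27.9 CPM in GAUi (log2 fold change -0.05, SE 0.13, edgeR adjusted p = 0.859), with overlapping groups. Of 23 cytosolic synthetase and cofactor genes 1 rose (EEF1E1, 0.41) and 3 fell: AIMP2 (-0.54, chromosome 7), GARS (-0.44) and DARS (-0.38). Of the 23, 19 had a fold change below 0 (median -0.14), and the falls numbered 1 without control replicate A, 2 without GAUi replicate A and 7 with library totals. In the 17 mitochondrial synthetases (median -0.16, 13 below 0) 0 were called by edgeR or DESeq2, with 1 higher and 1 lower at an unadjusted p under 0.05. In 47 genes of tRNA transcription and processing, YRDC rose (0.38) and the tRNA ligase RTCB fell (-0.46); the rise was lost without control replicate C or GAUi replicate A or B, and the fall without control replicate A or B or GAUi replicate A or C. Among 21 sensors and rescue factors of stalled ribosomes, EDF1 rose (0.26) and ANKZF1 fell (-0.65), with 0 calls in that list when any 1 library other than control replicate C was left out. Among 22 inhibitors and sensors of mTORC1, DDIT4 and SESN2 fell and the translation repressor EIF4EBP1 rose (0.35), a rise not called without control replicate B, GAUi replicate A or GAUi replicate C, or with library totals. Of 23 enzymes that break down isoleucine and the other branched-chain amino acids, DLD (-0.81, chromosome 7) and ALDH6A1 (-0.53) fell, 1 fall being left without control replicate A or B or GAUi replicate A or B, and 5 with library totals.

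Of 34 genes of DNA replication 7 fell and 1 rose (median -0.07), against 5.48% of all tested genes called lower and 4.66% higher. Of 33 mitotic genes 1 fell and 2 rose, while 25 had a fold change below 0 (median -0.16) and 11 were lower and 3 higher at an unadjusted p under 0.05. Library totals in place of TMM gave 7 mitotic falls and 1 rise. The difference between these lists was not tested. The helicase subunit MCM7 had 107, 88.6 and 80.5 CPM in control and 47.8, 54.5 and 47.9 CPM in GAUi (log2 fold change -0.88, SE 0.10, edgeR adjusted p = 2.81e-06; chromosome 7). RRM2, which makes deoxynucleotides, had 102, 104 and 104 CPM and 79.05, 79.7 and 76.04 CPM (log2 fold change -0.40, SE 0.09, edgeR adjusted p = 0.00791), and MCM6 (-0.68), MCM5 (-0.56), MCM3 (-0.41), RRM1 (-0.35) and CDC6 (-0.33) fell too. GINS2 rose (0.40). The falls numbered 2 without control replicate A or GAUi replicate A and 3 without GAUi replicate B. Of the mitotic genes, CKS2 (0.42) and UBE2C (0.28) rose and BUB1 (-0.43) fell; 0 were called without control replicate A or GAUi replicate A. Of 17 tested histones only H2AFZ was called (0.27), with 0 rises when any 1 library other than control replicate C was left out, and of 19 p53 targets AEN (0.35), GADD45A (0.33) and ZMAT3 (0.33) rose. The p53 rises numbered 0 without control replicate B, 2 without control replicate C and 1 without any other library, and library totals gave 1 rise and 2 falls.

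Among cytosolic chaperones 5 of 19 fell and 1 rose. HSPB1, a small heat shock protein, fell from 339.8, 408 and 362 CPM to 217, 215 and 225 CPM (log2 fold change -0.75, SE 0.11, edgeR adjusted p = 4.3e-05; chromosome 7, 0.37 below its median), and its partner BAG3 (-0.63), HSPA4 (-0.41) and STIP1 (-0.33) fell beside HSPA1B. The mitochondrial HSPE1 rose (0.30). In the endoplasmic reticulum, PDIA4 (-0.85, chromosome 7), PDIA3, CALR and CANX fell, whereas the translocon proteins SSR3 and SEC61B rose. SSR3 had 444, 439 and 445 CPM in control and 623, 623 and 661 CPM in GAUi (log2 fold change 0.52, SE 0.08, edgeR adjusted p = 4.78e-05). Of 31 proteasome subunits PSMA7 rose (0.24) and PSMC2 fell (-0.61, chromosome 7). Falls among cytosolic and endoplasmic reticulum chaperones numbered 3 and 1 without control replicate A or GAUi replicate A, and 2 in the endoplasmic reticulum without GAUi replicate C.

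CDH11 and PTK7, whose mean level lay under the floor of the lead list above, rose more than 2-fold. CDH11 (chromosome 16, 64943753 to 65123744), a mesenchymal cadherin, had 2.63, 1.52 and 2.54 CPM in control and 10.4, 8.58 and 11.5 CPM in GAUi (log2 fold change 2.17, SE 0.24, edgeR adjusted p = 7.71e-07), and PTK7 (chromosome 6, 43076314 to 43161715), a pseudokinase of planar cell polarity and Wnt signalling, had 3.54, 4.16 and 3.63 CPM and 11.9, 8.58 and 9.18 CPM (log2 fold change 1.39, SE 0.19, edgeR adjusted p = 2.87e-05). All GAUi libraries lay above all control libraries in both. The same list of 29 invasion and mesenchymal genes held 5 falls, among them TGFBI (-0.55), VIM (-0.33), CAV1 (-0.28, chromosome 7) and ANXA1 (-0.41). Of these falls 1 was left without control replicate A or B, or without GAUi replicate A or C. In total RNA 8 genes of that list rose and 1 fell.

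The lists that follow are set against 4.66% of all tested genes called higher and 5.48% lower. Among 25 epithelial junction and keratin genes 3 rose and 3 fell. Without single libraries 1 to 3 rose and 2 to 3 fell, and library totals gave 2 rises and 6 falls. The hair keratin KRT81 had 462, 534 and 506 CPM in control and 736, 813 and 764 CPM in GAUi (log2 fold change 0.63, SE 0.10, edgeR adjusted p = 0.000254); KRT86 (0.56), which is closely similar in sequence, and CLDN7 (0.38) rose as well. CLDN4 and CLDN12 (-0.44), both on chromosome 7, and the desmosomal cadherin DSG2 (-0.93) fell. Metallothioneins, which bind zinc and copper, split: MT2A rose from 1315, 1348 and 1352 to 2058, 1843 and 2144 CPM (log2 fold change 0.59, SE 0.09, edgeR adjusted p = 0.0001) and MT1E by 0.42, and MT1F fell from 4.23, 3.60 and 5.27 to 0.919, 1.72 and 1.97 CPM (log2 fold change -1.48, SE 0.35, edgeR adjusted p = 0.00739; not called by DESeq2 or without GAUi replicate A), with 7 tested. Of 21 hypoxia genes ADM (0.74) and BNIP3 (0.38) rose and 3 fell, among them BHLHE40 (-0.99) and NDRG1 (-0.41). The hypoxia falls numbered 1 to 3 without single libraries and 5 with library totals. Of 27 immediate early and MAPK feedback genes DUSP5 rose (0.39), as did FOSL1 (0.26), and ETV5 (-0.57), DUSP6 (-0.31) and IER3 (-0.32) fell. In this list 0 to 2 rose and 1 to 3 fell without single libraries, and library totals gave 1 rise and 8 falls.

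The 3 annotated Ile GAU tRNA genes were found on chromosome X between 3838377 and 3915303. Of the 4 RefSeq genes counted within 500 kb, 2 had enough reads to be tested. PRKX (chromosome X, 3604340 to 3713649), a cAMP-dependent kinase, had 18.1, 13.9999 and 16.2 CPM in control and 20.99, 26.03 and 26.2 CPM in GAUi, with no overlap (log2 fold change 0.60, SE 0.13, edgeR adjusted p = 0.00484). Its change was 0.21 in total RNA (adjusted p = 0.367, edgeR) and 0.43 in the low fraction. The pseudogene LOC389906, which overlaps the first tRNA gene, had 3.54, 5.54 and 3.81 CPM and 4.90, 4.43 and 5.74 CPM (log2 fold change 0.22, SE 0.27, edgeR adjusted p = 0.661), with overlapping groups, and a change of 0.60 in total RNA (adjusted p = 0.0415, edgeR).

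The change in the high fraction was next set beside that in the other fractions of the same lines. In total RNA 541 genes were higher (4.38%) and 707 lower (5.72%), and in the low fraction 158 (1.27%) and 265 (2.13%). Among genes tested in both, 142 of the 555 higher calls of the high fraction (25.6%) and 276 of the 653 lower calls (42.3%) were also called that way in total RNA. Those are 26.4% and 39.4% of the total RNA calls, and 4 and 6 genes were called in opposite directions. In the low fraction 65 and 151 were shared, 11.7% and 23.1% of the high-fraction calls and 41.7% and 57.2% of the low-fraction ones. Many of the shared falls lay on chromosome 7. Off that chromosome, 142 of 554 higher and 121 of 408 lower calls were shared with total RNA. For the low fraction these were 65 of 555 and 49 of 409. Replicates of GAUi total RNA and control replicate B of the low fraction were further apart than those of the high fraction: chi-square over degrees of freedom of their counts was 8.68 to 24.5 and 14.2 to 16.3, against 2.53 to 4.16.

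Testing the change in the high fraction minus that in total RNA called 90 of 12540 genes, 28 higher (0.223%) and 62 lower (0.494%). Shifts away from the polysomes were called, beside HSPA1B, in SCFD2 (-1.23), FTO (-1.20), PPP2R1A (-0.996) and PIGK (-0.96). FTO, an RNA demethylase, fell by 0.65 in the high fraction and rose by 0.55 in total RNA on the log2 scale, and PPP2R1A, the scaffold of phosphatase 2A, rose in total RNA (0.67). Shifts the other way were led by the histones HIST2H2AB (1.39) and HIST1H2BC (1.23), APCDD1L-AS1 (1.02), UBTD1 (1.001), the mTORC1 substrate AKT1S1 (0.94) and RPS27L (0.92). The libraries read polyadenylated RNA, so the histone values cover only the part of histone mRNA that such libraries capture. In UBTD1, AKT1S1 and HIST2H2AB the high fraction itself was near 0 and total RNA lower. This count rested on single libraries: it was 0 without GAUi high-fraction replicate A, 4 without control high-fraction replicate A, and 4 to 13 without any 1 of the control total RNA libraries. It was 13 and 14 without control B and GAUi C of the high fraction, 48 without GAUi B, 154 without control C, and 362, 184 and 309 without GAUi total RNA A, B and C. A fit of the contrast's own groups alone called 0.

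Against the low fraction 25 of 12749 genes were called (0.196%), all 25 higher in the high fraction; 0 were called with library totals in place of TMM, 44 with RLE scaling and 274 with DESeq2. With edgeR 0 were lower, although 695 had an unadjusted p under 0.05 in that direction and DESeq2 called 31. HIST1H2AH (1.27), C11orf91 (1.11), HIST2H2AC (0.91), DNPH1 (0.83), PTRHD1 (0.81) and PHPT1 (0.74) led. For the histones among them, only the part of the mRNA captured as polyadenylated RNA was counted. PTRHD1 had 30.7, 32.6 and 36.1 CPM in the control high fraction and 52.4, 44.5 and 53.1 CPM in GAUi, while in the low fraction the means were 55.4 ± 8.08 and 48.9 ± 4.81 CPM. The count was 0 without any 1 of 5 libraries: high-fraction control C, GAUi A and GAUi C, and low-fraction GAUi A and GAUi C; it was 15 without high-fraction control A, 63 without high-fraction GAUi B, 190 without low-fraction control B and 44 without low-fraction GAUi B.

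Whether the change depended on the UAU construct was tested as the GAUi effect with the control construct minus that with the UAU construct, between which no library is shared. This difference was called for 4276 of 11979 genes, 2104 higher (17.6%) and 2172 lower (18.1%). Of the 1215 genes called in GAUi against control, 793 were among them, and 525 of the 1215 had the same sign in isoswitch against UAU. The change that gave those 1215 calls is part of the difference, so the count of 793 is not independent of them. Isoswitch against UAU by itself called 4985 genes. Each combination of constructs was a single line, so a dependence on the construct cannot be told apart from other differences between the lines. For large ribosomal proteins the median change was 0.25 with the control construct and -0.18 with the UAU construct, and 30 of 47 differences were called higher and 3 lower. For the small subunit the medians were 0.27 and -0.28, with 25 of 32 called higher and 1 lower. Glycolysis went the other way, -0.31 and 0.54, with 13 of 23 differences lower and 1 higher, as did interferon genes, -0.39 and 0.23, with 12 of 32 lower and 3 higher.

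Chromosome 7 and several single genes changed in the same direction with both constructs. The median of chromosome 7 genes was -0.41 in isoswitch against UAU. PON2 changed by -2.15 and -2.04, with a difference of -0.11 (SE 0.23, edgeR adjusted p = 0.76). CDH11 changed by 2.17 and 2.51 (difference -0.34, SE 0.39), CLDN4 by -1.20 and -1.22 (difference 0.02, SE 0.16), APCDD1L by 0.76 and 0.76 (difference 0.00, SE 0.13) and CD274 by 0.74 and 0.88 (difference -0.14, SE 0.26). None of these 5 differences was called. S100A4 fell by 1.42 with the control construct and by 2.35 with the UAU construct (log2 fold change 0.92, SE 0.11, edgeR adjusted p = 9.8e-07), and DDIT4 by 1.45 and 0.47 (log2 fold change -0.99, SE 0.15, edgeR adjusted p = 1.19e-05). The strongest differences were in SDPR (-1.79), FSCN1 (-1.71), ALDH6A1 (-1.68), ANXA2P3 (-1.67), TRAP1 (-1.66) and ANXA1 (-1.63) on the negative side, and in PKIA (1.49), MYEOV2 (1.48), SNRPG (1.47), TRIAP1 (1.46), TMSB4X (1.45) and GDF9 (1.44) on the positive side. ANXA2P3 is a processed copy of ANXA2, so its reads are uncertain.

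**Figure D5:**
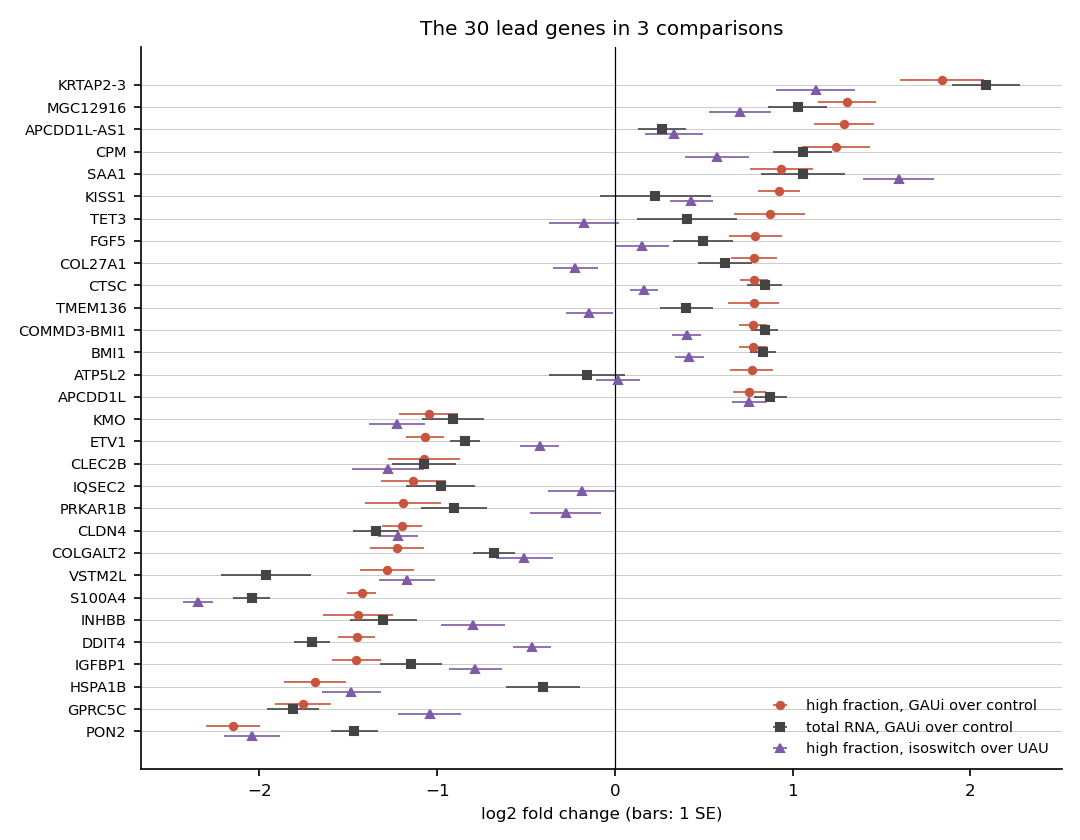
Log2 fold changes (points) with 1 SE (bars) of the 30 lead genes in GAUi over control, high fraction and total RNA, and in isoswitch over UAU, high fraction. PON2 lies at -2.15 and -2.04 in the high-fraction comparisons, S100A4 falls more with the UAU construct, and COL27A1 and TMEM136 lie above 0 with the control construct and below 0 with the UAU construct.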

How the data were processed

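QuantSeq 3' libraries were made from 500 ng RNA, per the labels' protocols. The authors deposited raw counts per gene symbol (26485 symbols, 36 libraries). STAR, featureCounts, DESeq2 and hg38 are listed, per the submitters' processing notes; their versions, the annotation and the strand setting were not given in the sources used here. Counts were tested with edgeR 4.0.16 (filterByExpr, TMM, quasi-likelihood test, Benjamini-Hochberg, adjusted p under 0.05) in R 4.3.3, with group as the only term. The 4 lines of a fraction were fitted together (12 libraries), and 24 libraries entered tests between fractions. SE is the size of the log2 fold change over the square root of F.

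On simulated counts for 11874 genes of the high-fraction comparison, 81% of 100 genes changed by 0.5 (log2) and 100% of 100 changed by 1 were recovered, with 6 false calls. The simulated unchanged genes had the same mean in every line, spreads taken from the fit and no shift of a chromosome. The simulation therefore does not give the number of false calls in the real data. Alternatives were RLE scaling, library totals, DESeq2 1.42.0, other count filters, the contrast's own groups, a replicate block, each library left out and, chosen after seeing the data, no chromosome 7 genes.

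Named genes were the 15 highest and 15 lowest called in the high fraction, with a mean log2 CPM of 3 or more and non-overlapping groups, 6 each way in the other tests and up to 4 called members per list. IARS, S100A4, INSIG1, DDIT4, ATF4 and markers were named in any case; further called list members, TFPI2 and PRKX were named after their values were seen. Some genes that meet these rules are not reported here. Members and lists were chosen with earlier results of these data known. Positions and promoters came from RefSeq, GRCh38.p14 (23758 symbols matched by name, 1562 by synonym).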

Additional observations from a re-analysis of the deposited data

Results flagged for a closer look

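Several results drew attention because a test of a difference between settings passed its threshold. The effect of GAUi with the control construct differed from that with the UAU construct in 4276 genes of the high fraction. Differences between the lines other than the constructs cannot be separated from this. Among the lead genes that rose, the difference on the log2 scale was 0.96 for APCDD1L-AS1, 0.67 for the carboxypeptidase M gene CPM, 0.49 for KISS1, 1.04 for TET3, 0.64 for FGF5, 1.01 for COL27A1, 0.62 for CTSC, 0.92 for TMEM136, 0.37 for COMMD3-BMI1, 0.36 for BMI1 and 0.75 for ATP5L2. The change was thus higher with the control construct in each. The lead genes were picked for large changes with the control construct, and that change is part of the difference. Its direction in the lead genes, rising or falling, is therefore partly set by the choice. TET3, COL27A1 and TMEM136 rose with the control construct and lay below 0 with the UAU construct. Among those that fell it was -0.71 for GPRC5C, -0.67 for IGFBP1, -0.99 for DDIT4, -0.72 for COLGALT2, -0.91 for PRKAR1B, -0.95 for IQSEC2, -0.64 for ETV1 and -0.63 for INSIG1, a larger fall with the control construct. S100A4 went the other way with 0.92. ATF4 differed by 0.63, while its own change with the control construct was not called.

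The change in the high fraction differed from that in total RNA in 90 genes, including APCDD1L-AS1 (1.02), HSPA1B (-1.28) and S100A4 (0.62). It differed from that in the low fraction in 25 genes.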

How the results depend on the processing

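In the high fraction the 1215 calls became 563 to 980 when any 1 library was left out, the higher calls 226 to 417 and the lower calls 337 to 563. Library totals in place of TMM gave 288 higher and 1181 lower, and a fit without chromosome 7 genes, chosen after seeing the data, 390 lower. The chromosome 7 median was -0.46 with library totals, -0.37 without a filter on low counts, -0.40 with the replicate block, and -0.40 to -0.38 without single libraries. Total RNA calls (1248) were 329 in a fit of the contrast's own groups and 531 to 2134 without single libraries. Low fraction calls (423) were 743 without a filter, 271 with its own groups, 190 without chromosome 7 genes and 177 to 760 without single libraries. For high fraction minus total RNA the 90 calls became 225 with library totals, 238 with DESeq2, 278 without a filter, 0 with the contrast's own groups and 0 to 362 without single libraries. For high minus low fraction the 25 became 44 with RLE scaling, 0 with library totals, 274 with DESeq2, 103 without a filter and 0 to 190 without single libraries. The difference between constructs held 3580 to 4695 calls without single libraries. The cause of these shifts was not tested.

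Same-letter correlations of deviations were 0.048, 0.075 and 0.213 for A, B and C, only 1 over 0.1. Control A and control B correlated best with GAUi B, and control C with GAUi C. So few libraries cannot settle whether the replicate letters pair the samples. The replicate block gave 1147 calls in the high fraction, 1138 in total RNA, 293 in the low fraction, 60 and 21 for the differences and 4234 between constructs. Of 2568 values of named genes under an alternative, 2308 kept direction and side of the threshold, 241 lost the call, 19 gained one and 0 changed direction. Of 924 list counts, 221 moved by more than 1.5 times. Medians of the S100, mTORC1, redox and p53 lists, all under 0.04, fell below 0 with library totals, and that of the redox list also without chromosome 7 genes. Isoleucine content per gene was planned but not run, since no table of coding or protein sequences was used here.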

Other observations

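Some list members rose in total RNA but not in the heavy polysomes, with the difference itself called by edgeR. KRT7, a keratin of simple epithelia, had 139, 135 and 138 CPM in control total RNA and 203, 199.5 and 167 CPM in GAUi total RNA (log2 fold change 0.47, SE 0.09, edgeR adjusted p = 0.00183). In the high fraction it had 174, 183 and 190.3 CPM in control and 146, 166 and 154 CPM in GAUi (log2 fold change -0.23, edgeR adjusted p = 0.0881), and the difference was -0.70 (edgeR adjusted p = 0.00721). S100A11, a calcium-binding protein of the S100 family, rose in total RNA by 0.61 and stood at 0.04 in the high fraction (difference -0.57, edgeR adjusted p = 0.0444). The membrane-binding annexin ANXA1 rose by 0.50 in total RNA and fell in the high fraction (-0.41; difference -0.91, edgeR adjusted p = 0.025). ANXA2 rose by 0.49 in total RNA and stood at -0.15 in the high fraction (difference -0.64, edgeR adjusted p = 0.0401). These 4 genes were chosen after their values were seen, and all 4 differences were lost without GAUi high-fraction replicate A.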
